A study of Homo sapiens with 9 samples.

Results

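The 24 h response to XD23, a compound that the labels give by code name alone, was examined in 143B cells by comparing the 3 libraries taken after 24 h with the 3 control libraries. These are 6 of the 9 libraries of the series, chosen by their labels. 143B is an established human osteosarcoma line, a tumorigenic derivative of the HOS line transformed with the Kirsten ras oncogene. Control cells were harvested at 0 h. Treated cells received XD23 at 0.5 µM for 24 h or for 48 h. All groups were grown in RPMI-1640 with fetal bovine serum. Neither a vehicle nor untreated cells at 24 h are given in the labels, so the compound and the time in culture cannot be told apart. Whether replicate libraries stem from separate cultures is not stated, and p-values then measure only the spread between these libraries, which may be technical. Levels are FPKM, fragments scaled to the length of the gene and the depth of the library, from sequencing of polyadenylated RNA.

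DKK1 is a secreted protein that binds the Wnt co-receptors LRP5 and LRP6 and blocks canonical Wnt signalling. When Wnt signals, β-catenin escapes its destruction complex, enters the nucleus and switches on targets through the TCF and LEF factors. In osteosarcoma the pathway is studied for its part in bone differentiation and tumour growth, and DKK1 and the WNT/β-catenin pathway are named in the title of the series. Inflammatory cytokines, targets of the hypoxia factors, cell-cycle genes and mitochondrial transcripts are described beside it.

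Of 36810 genes in the table, 13238 reached 1 FPKM in at least 3 of the 6 libraries and were tested, 10724 of them protein-coding. The 6 libraries held 18341545 to 21918500 fragments, so that 1 fragment corresponded to 0.0456 to 0.0545 FPKM for a gene with 1 kilobase of exon. Some markers of the mesenchymal and bone lineage were present: VIM lay at 297 to 389 FPKM, SPARC at 40.1 to 43.3, RUNX2 at 5.43 to 6.61 and TWIST1 at 5.34 to 6.91 over the 6 libraries. The osteoblast matrix and mineral genes were near 0, with COL1A1 at most 0.703, COL1A2 at most 0.0548 and ALPL at most 0.171 FPKM. The blood marker PTPRC was at most 0.00595 FPKM and the endothelial marker PECAM1 at most 0.437. Of 24 osteoblast and skeletal markers 11 were tested. These averaged 2.61 to 2.65 on the log2 scale in the controls and 2.68 to 2.70 at 24 h. Of 16 epithelial markers 4 were tested, EPCAM among them, and of 11 endothelial markers 4. The tested epithelial markers averaged 3.76 to 3.84 on the log2 scale in the controls and 3.77 to 3.99 at 24 h, and the tested endothelial markers 2.45 to 2.48 and 2.39 to 2.47. Of 16 blood and immune markers 1 was tested, at 0.48 to 1.14 in the controls and 0.76 to 1.44 at 24 h. Of 17 chondrocyte, adipocyte and muscle markers only SOX9 was tested, at 5.14 to 5.23 and 5.16 to 5.26.

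Replicate 3 of the 24 h group stood apart from the other libraries before any comparison was made. Its score on the second principal component was -23.94, and the scores of the other 8 ranged from -6.5 to 8.72. The mean log2 level of 79 ribosomal protein genes was 8.0 in this library and 7.61 to 7.78 in the others. Its shortest genes (48 to 1924 bases of exon) lay at a median of 0.063 above the control mean and its longest (7721 to 44677 bases) at -0.147. The other 24 h libraries stayed between -0.021 and 0.011 over all length classes. The 48 h libraries ran the other way, from -0.139 to -0.108 in the shortest genes and from -0.001 to 0.067 in the longest. Fold changes, medians and counts of separate groups are therefore given with and without this library.

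**Figure D1:**
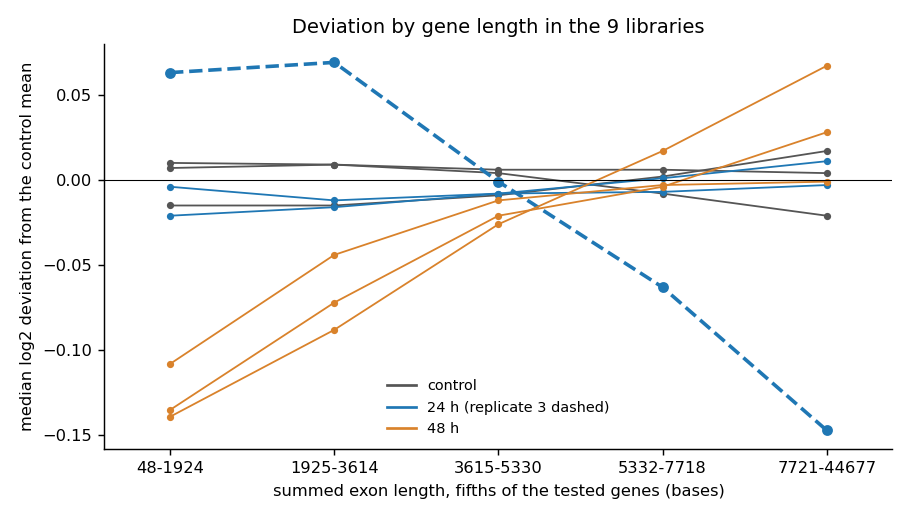
Each line is 1 library, with control libraries in grey, 24 h libraries in blue and 48 h libraries in orange. The x axis shows the tested genes in 5 classes of equal size by summed exon length in bases, and the y axis the median log2 deviation from the control mean. The dashed line, 24 h replicate 3, runs from 0.063 in the shortest genes to -0.147 in the longest.

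At 24 h almost no transcript differed from control beyond the spread between libraries. Calls required a limma p below 0.05 after Benjamini-Hochberg adjustment over all 13238 genes. No gene was called higher and 1 was called lower (0.00755% of those tested), RNU6-548P, an annotated copy of the U6 spliceosomal RNA. Without 24 h replicate 3 no gene was called in either direction. At an unadjusted p under 0.05 there were 993 genes (7.5%), or 1197 (9.04%) without that library. The next smallest adjusted p after RNU6-548P was 0.128.

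Most transcripts were bounded closely around no change. The log2 fold change had a median 95% half-width of 0.164, and for 11793 genes (89.1%) the interval lay within 0.5 of zero in both directions (0.151 and 11884 genes, 89.8%, without replicate 3). These intervals are not adjusted over genes. The middle 95% of fold changes ran from -0.30 to 0.23, or from -0.28 to 0.25 without replicate 3, compared with -0.54 to 0.48 at 48 h. None of the 10724 protein-coding genes moved by as much as 1 on the log2(FPKM + 1) scale, with or without replicate 3. This scale understates changes of low genes. The lowest value among protein-coding genes was that of ANGPTL4, -0.51 (-0.61 without replicate 3). The highest was that of the histone gene H2BC17, 0.51 (0.48). Over the alternative settings ANGPTL4 ranged from -0.76 to -0.36 and H2BC17 from 0.35 to 0.90. Of the 34 genes that did exceed 1, 27 were small or structural RNAs, 6 were pseudogenes and 1 was an antisense transcript. Without replicate 3 there were 39 such genes, 30 of them small or structural RNAs and 8 pseudogenes.

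The 48 h group, read against the same 3 control libraries in the same fit, had 1755 genes called higher (13.3%) and 2096 called lower (15.8%). Between 24 h and 48 h themselves 4361 genes differed (32.9%, limma adjusted p under 0.05). The median log2 fold change at 48 h was -0.128 in the shortest class of genes and 0.029 in the longest. How far gene length enters the 48 h values was not tested. Since the controls are shared, values of both times are given side by side below and no overlap is drawn from them.

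**Figure D2:**
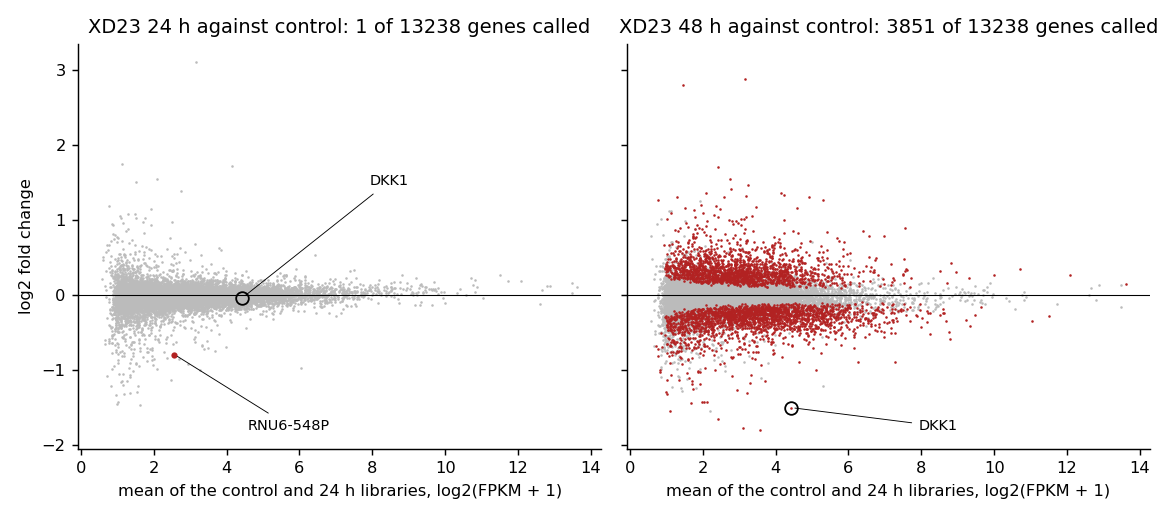
Each point is 1 of the 13238 tested genes, with its mean log2(FPKM + 1) over the control and 24 h libraries on the x axis and its log2 fold change against control on the y axis. Red marks genes called with limma. Only RNU6-548P is red at 24 h, while DKK1, circled, lies near zero at 24 h and at -1.496 at 48 h.

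RNU6-548P was the only gene called lower at 24 h in the unweighted fit to all libraries. U6 is the small nuclear RNA at the catalytic heart of the spliceosome, and the genome holds many near-identical copies of it. RNU6-548P (ENSG00000252892) lies at chr2:64994746-64994860 on the plus strand of GRCh38, within SLC1A4 on the same strand and outside all annotated exons of SLC1A4. Shared sequence among the copies makes the assignment of its reads uncertain. The locus is annotated as a small nuclear RNA, and whether this copy yields a working U6 RNA was not tested.

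The controls had 7.23, 6.09 and 7.11 FPKM of RNU6-548P, and the 24 h libraries had 3.36, 3.62 and 3.57. All 24 h values were lower than all control values, and the 48 h values of 5.78, 6.83 and 6.42 FPKM lay near the controls. The log2 fold change was -0.79 ± 0.073 (SE, n = 3 and 3, limma adjusted p = 0.0301). These levels rest on few fragments, 17, 14 and 15 in the controls and 8, 9 and 9 at 24 h. The SE and p-value use the spread between libraries on the log scale and no model of counting so few fragments. Of 22 alternative settings, 9 called the gene. The call was lost without 24 h replicate 3 (-0.80, adjusted p = 0.0753), and also without either of the other 24 h libraries (0.227 and 0.103) or without control replicate 1 or 3 (0.255 and 0.285). Among the 66 U6 copies tested, 6 had all 24 h values below all controls and 1 had them above, where 8.4% of all tested genes lay below and 4.85% above. Without replicate 3 these were 10 and 3, and the median over the copies was -0.11 with that library and 0.02 without it. The surrounding gene SLC1A4, a neutral amino acid transporter, had 11.3, 12.6 and 11.6 FPKM in the controls and 12.6, 12.5 and 12.4 at 24 h (log2 fold change 0.08 with and without replicate 3, adjusted p = 0.740).

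DKK1 was not lower at 24 h beyond the spread. The controls had 22.3, 19.4 and 21.01 FPKM and the 24 h libraries 19.8, 19.4 and 21.8, so the groups overlapped fully. The 48 h libraries had 6.98, 6.72 and 6.54 FPKM. The log2 fold change at 24 h was -0.04 ± 0.061 (SE), with a 95% interval from -0.17 to 0.10 and an adjusted p of 0.903 with limma. The two-sided exact permutation test over the 6 libraries gave p = 0.8, where 0.1 is the smallest it can give. Without replicate 3 the fold change was -0.08 (95% interval -0.21 to 0.05, limma adjusted p = 0.696). In the same fit DKK1 fell by 1.496 at 48 h (limma adjusted p = 5.66e-06).

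The other secreted antagonists and receptors of the Wnt pathway were also close to control. SFRP1, which binds Wnt ligands, averaged 22.5 FPKM in the controls and 21.6 at 24 h (log2 fold change -0.06, or -0.07 without replicate 3). DKK3, a divergent relative of DKK1, averaged 2.53 and 2.32 FPKM (-0.08, or -0.10 without it), and KREMEN1, a DKK1 receptor, 2.63 and 2.72 (0.02, or 0.16 without replicate 3). No gene of the 5 tested antagonists was called or had groups without overlap. Without replicate 3, 1 of them had its values above the controls. Of 20 tested ligands and receptors, FZD1 and FZD4, which are Wnt receptors, had all 24 h values above all controls, and the ligand WNT2B had them below. Without replicate 3 there were 2 above and 3 below. FZD1 had 2.63, 2.58 and 2.24 FPKM in the controls and 2.83, 2.70 and 2.93 at 24 h (log2 fold change 0.14, or 0.12 without replicate 3, adjusted p = 0.693 and 0.689). FZD4 had a fold change of 0.12, or 0.14 without it, and WNT2B -0.11, or -0.12. Over all tested genes, 642 (4.85%) had all 3 24 h values above all controls and 1112 (8.4%) had them below. Without replicate 3, where 2 values are set against 3, these were 1580 (11.9%) and 2103 (15.9%). The split depends on scaling: quantile normalization gave 865 above and 876 below, median-of-ratios scaling 798 and 923, and correction for gene length 891 and 916.

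The β-catenin gene itself, CTNNB1, had 34.8, 33.7 and 34.8 FPKM in the controls and 34.5, 33.3 and 36.0 at 24 h. Its log2 fold change was 0.01 (-0.02 without replicate 3). Among β-catenin targets, CCND1, which encodes the G1 cyclin D1, had 146, 153 and 149 FPKM against 155, 155 and 141 (0.01, or 0.06 without replicate 3). LEF1, a nuclear partner of β-catenin that is also a target, averaged 6.02 and 6.30 FPKM (0.06, or 0.04 without replicate 3). MYC averaged 5.83 and 5.396 FPKM (-0.09, adjusted p = 0.736, or -0.13 without replicate 3). AXIN2, a feedback inhibitor that is widely used as a target readout, lay at 0.373 to 0.562 FPKM in the controls and 0.397 to 0.445 at 24 h and was below the limit for testing. Of 21 tested targets none was called, none had all 24 h values above the controls and 4 had them below, namely NKD2, PPARD, RUNX2 and VEGFA. Without replicate 3 there were 2 above and 6 below. RUNX2, the master regulator of osteoblast identity, had 6.02, 6.61 and 6.38 FPKM and then 5.76, 5.43 and 5.79 (log2 fold change -0.14, adjusted p = 0.562, or -0.15 without replicate 3). The median over the targets was -0.01, or -0.02 without replicate 3. Over all tested genes it was -0.016, or -0.006 without it. The 31 genes of the destruction complex and its nuclear effectors had a median of -0.02, or 0.02 without replicate 3, with 1 gene above and 2 below all controls (4 and 2 without it).

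Because a single gene was called, the genes named from here on were chosen after their values were seen. Most had groups without overlap or were called when libraries were weighted. No member of the 53 lists was called in the unweighted fit, with or without replicate 3. Of the 53 medians over all libraries, 48 lay within 0.1 of zero on the log2 scale. Over all tested genes, 4.85% had all 24 h values above all controls and 8.4% below, or 11.9% and 15.9% without replicate 3. At 48 h, 13.3% were called higher and 15.8% lower. The list counts below are to be read against these shares.

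The targets of NF-κB, the transcription factor family that drives inflammatory genes, held the lowest median of the lists, -0.15, or -0.20 without replicate 3. Of 22 tested members, 9 had all 24 h values below all controls and none had them above. Without replicate 3 these were 15 and 2. CXCL8, the neutrophil chemoattractant interleukin 8, had 26.0, 26.2 and 25.3 FPKM in the controls and 15.5, 18.3 and 23.2 at 24 h. The 24 h libraries were all lower, with replicate 3 closest to the controls. Its log2 fold change was -0.44 ± 0.12 (SE, adjusted p = 0.482), or -0.59 without replicate 3 (adjusted p = 0.134).

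IL1B and IL1A encode the interleukin 1 cytokines. IL1B had 18.996, 17.6 and 19.97 FPKM in the controls and 13.4, 13.3 and 17.1 at 24 h (-0.35, or -0.46 without replicate 3). IL1A had 93.6, 95.1 and 94.6 FPKM, then 76.4, 76.0 and 86.8 (-0.24, or -0.31). In both genes replicate 3 was the 24 h library nearest to the controls. PTGS2, the inducible cyclooxygenase that makes prostaglandins, had 8.46, 8.44 and 8.32 FPKM and then 5.78, 6.69 and 6.87 (-0.34, or -0.38 without replicate 3). LIF, an interleukin 6 family cytokine, had 2.50, 2.82 and 3.34 FPKM and then 2.09, 2.02 and 1.85 (-0.38, or -0.34). For LIF replicate 3 was the lowest of the 24 h libraries, so this library did not stand to one side of the others in every member of the list. NFKB2, a subunit of NF-κB, had 13.98, 14.6 and 16.1 FPKM, then 12.2, 12.7 and 11.9 (-0.26, adjusted p = 0.450, or -0.24 without replicate 3).

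At 48 h the same list had a median of 0.57, and 20 of its 22 members were called higher against the same controls. CXCL8 had 36.6, 42.0 and 41.6 FPKM at 48 h, IL1B 29.02, 31.0 and 30.2, and LIF 7.12, 8.05 and 7.37. For these genes the 24 h values thus lay under the controls and the 48 h values over them. ICAM1, a leukocyte adhesion protein, averaged 8.98 FPKM in the controls, 8.003 at 24 h and 26.5 at 48 h, where it was called higher. Its 24 h values overlapped the controls (-0.15, or -0.17 without replicate 3). The immediate early list, genes that respond within minutes to growth signals, had a median of -0.02 at 24 h (-0.03 without replicate 3) and 0.41 at 48 h. In this list 5 of 27 tested members had all 24 h values below all controls and 1 above (10 and 1 without replicate 3). Its member EGR1 had 29.3, 31.3 and 29.4 FPKM in the controls and 27.2, 28.3 and 30.4 at 24 h, which also overlapped (-0.07, or -0.11 without replicate 3).

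**Figure D3:**
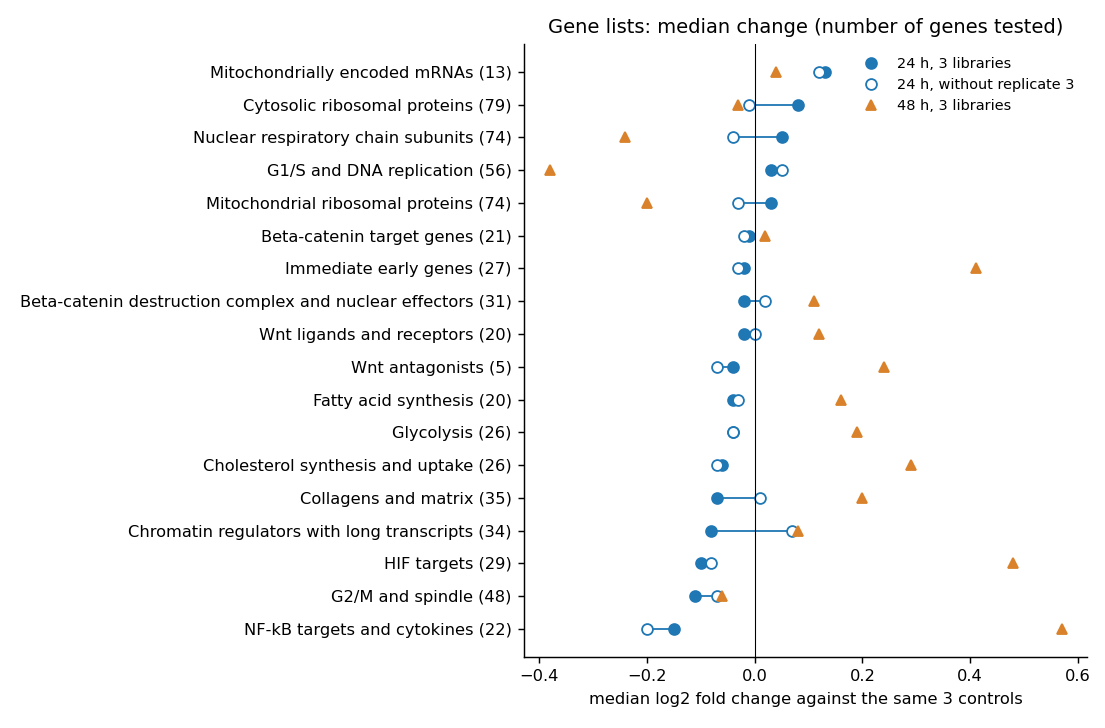
The x axis gives the median log2 fold change of each gene list against the same 3 controls, and the number of tested genes stands beside each list name. Filled circles are 24 h with 3 libraries, open circles 24 h without replicate 3, and triangles 48 h. The NF-κB list lies at -0.15 at 24 h and 0.57 at 48 h, and ribosomal protein genes move from 0.08 to -0.01 when replicate 3 is left out.

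The targets of hypoxia-inducible factors, which cells use to adapt to low oxygen, had a median of -0.10, or -0.08 without replicate 3. Of 29 tested members, 9 had all 24 h values below all controls and none above, and without replicate 3 these were 19 and 0. STC1, a secreted glycoprotein hormone, had 5.58, 4.64 and 4.95 FPKM in the controls and 3.73, 3.54 and 4.15 at 24 h (-0.33, adjusted p = 0.368, or -0.38 without replicate 3). BHLHE40, a transcriptional repressor linked to the clock and to hypoxia, had 42.0, 42.6 and 40.3 FPKM and then 36.6, 33.5 and 37.9 (-0.21, adjusted p = 0.438, or -0.24 without it). ANGPTL4, an inhibitor of lipoprotein lipase, had 2.93, 1.68 and 2.31 FPKM and then 1.44, 0.877 and 1.66, so its groups were separated by a narrow margin. At 48 h, 22 of the 29 were called higher, with a list median of 0.48. STC1 averaged 18.8 FPKM there, and ANGPTL4 averaged 21.8.

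Genes of mitosis and the spindle were slightly lower in most cases. The G2/M list had a median of -0.11, or -0.07 without replicate 3, and 45 of 48 members had a lower mean at 24 h, with and without that library. The median over all tested genes was itself below zero, at -0.016, or -0.006 without replicate 3. All 24 h values lay below all controls in 21 members and above them in none, or in 26 and none without replicate 3. In bulk RNA, fewer cells in this phase and less RNA in each such cell cannot be told apart. KIF18A, a kinesin that damps chromosome movement, had 11.2, 10.7 and 10.9 FPKM in the controls and 9.28, 9.49 and 9.29 at 24 h. HMMR, a spindle-associated hyaluronan receptor, had 28.9, 29.3 and 29.05 FPKM and then 26.3, 26.3 and 26.0. SPC25, a subunit of the NDC80 kinetochore complex, had 16.8, 16.2 and 16.6 FPKM and then 14.6, 13.6 and 14.6. In these genes the 24 h libraries lay within a narrow range that included replicate 3. Their log2 fold changes were -0.21, -0.15 and -0.20, with limma adjusted p of 0.262, 0.298 and 0.298. Without replicate 3 they were -0.20, -0.14 and -0.21.

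The lowest fold change of the list was -0.25. That of MKI67, which encodes the proliferation antigen Ki-67, was close to it and rested on replicate 3. MKI67 had 37.8, 44.1 and 38.7 FPKM in the controls and 42.4, 42.1 and 21.7 at 24 h, so its groups overlapped, and its fold change was -0.24 with replicate 3 and 0.07 without it. PLK4, the kinase that starts centriole duplication, had a fold change of -0.21 with and without replicate 3, and AURKA, a spindle pole kinase, -0.12, or -0.16 without it. PLK1, a mitotic master kinase, lay at -0.10, or -0.11, and CCNA2, the S and G2 phase cyclin A2, at -0.09, or -0.12. TOP2A, the topoisomerase that untangles mitotic DNA, moved from -0.14 to -0.07 without replicate 3, where it had 86.4 FPKM against 101 and 101 in the other 24 h libraries. At 48 h the list had a median of -0.06, with 4 members called higher and 12 lower.

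The promoters of HMMR, SPC25 and KIF18A are shown because these members were the ones called when libraries were weighted (below). Many mitotic genes carry a cell cycle homology region (CHR) near the start site, with the letters TTTGAA, and CCAAT boxes further upstream. Windows of 300 bases, from 250 before to 50 after the start site, come from RefSeq on GRCh38.p14, printed 5′ to 3′ on the gene's strand with TTTGAA or its reverse complement in capitals. HMMR is at chr5:163460382-163460681 (plus strand), SPC25 at chr2:168890381-168890680 (minus strand) and KIF18A at chr11:28108107-28108406 (minus strand).
HMMR: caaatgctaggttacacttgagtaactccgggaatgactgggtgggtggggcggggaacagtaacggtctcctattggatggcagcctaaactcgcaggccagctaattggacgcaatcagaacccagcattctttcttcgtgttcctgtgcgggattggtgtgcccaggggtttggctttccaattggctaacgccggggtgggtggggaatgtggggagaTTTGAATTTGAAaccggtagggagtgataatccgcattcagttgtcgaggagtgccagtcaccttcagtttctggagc
SPC25: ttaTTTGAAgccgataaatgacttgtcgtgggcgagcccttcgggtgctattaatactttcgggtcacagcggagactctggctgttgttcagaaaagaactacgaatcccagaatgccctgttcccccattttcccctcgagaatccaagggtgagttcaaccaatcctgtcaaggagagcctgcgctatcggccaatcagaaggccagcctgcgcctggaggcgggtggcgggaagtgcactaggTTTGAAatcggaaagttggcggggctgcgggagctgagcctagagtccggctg
KIF18A: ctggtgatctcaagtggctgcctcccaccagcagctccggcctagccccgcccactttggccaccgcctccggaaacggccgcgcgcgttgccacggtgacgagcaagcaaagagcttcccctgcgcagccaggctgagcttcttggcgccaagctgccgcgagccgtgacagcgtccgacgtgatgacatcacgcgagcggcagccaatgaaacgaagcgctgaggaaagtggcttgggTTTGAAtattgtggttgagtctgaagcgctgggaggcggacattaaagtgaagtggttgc
TTTGAA was found in HMMR at -28 and -22, in SPC25 at -247 and -3 and in KIF18A at -10 (bases from the start site). On either strand it was present for 28 of the 41 tested G2/M genes with a window (68.3%), for 15 of the 20 whose groups did not overlap (75.0%), and for 1217 of the 9256 tested genes with a window (13.1%). Over all 35116 windows of this length, 15.2% held it. CCAAT or its reverse ATTGG, which can overlap each other, was present for 34 of the 41 (82.9%) and for 43.4% of the tested genes. A match of letters is a description of the window and not evidence of a bound factor.

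Genes of G1/S and DNA replication did not follow the G2/M list. Their median was 0.03, or 0.05 without replicate 3. Of 56 tested members, 8 had all 24 h values above all controls and 2, LIG1 and RRM1, had them below. Without replicate 3 these were 17 and 3. PCNA, the sliding clamp of the replication fork, had 117, 113 and 117 FPKM in the controls and 125, 129 and 151 at 24 h. Replicate 3 was the highest, and the log2 fold change was 0.22 with it and 0.14 without it. MCM3, a subunit of the replicative helicase, had 58.9, 59.6 and 61.0 FPKM and then 68.7, 68.2 and 64.7 (0.16, or 0.19 without replicate 3). CDC45, another helicase component, had 8.40, 7.93 and 8.26 FPKM and then 9.22, 9.56 and 9.28 (0.17, adjusted p = 0.553, or 0.18 without replicate 3). At 48 h, 41 of the 56 were called lower, with a list median of -0.38. PCNA then had 81.0, 71.8 and 82.2 FPKM and MCM3 48.0, 40.4 and 42.7, both below the controls.

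The mRNAs of the mitochondrial genome, which encodes 13 subunits of the respiratory chain, were slightly higher at 24 h. All 13 had a higher mean and 8 had all 24 h values above all controls, with and without replicate 3, and the median was 0.13, or 0.12 without that library. The list's level depended on scaling, and quantile normalization took the median to 0.00. MT-ND1, a subunit of complex I, had 2639, 2786 and 2539 FPKM in the controls and 3081, 3171 and 3375 at 24 h (0.27 ± 0.055, SE, adjusted p = 0.298, or 0.24 without replicate 3). MT-CYB, of complex III, had 1562, 1614 and 1451 FPKM and then 1766, 1844 and 1831 (0.24, adjusted p = 0.298, or 0.23). Quantile normalization, which forces the highest ranks of all libraries to the same values, moved MT-ND1 to 0.00. It called 2 subunits of complex IV in opposite directions at the same limma adjusted p of 3.9e-05. MT-CO2, whose groups overlapped at 0.02 (also 0.02 without replicate 3), was called lower at -0.12, and MT-CO1, at 0.17 with and without replicate 3, was called higher at 0.12. The 2 mitochondrial rRNAs tested both had a lower mean at 24 h, with a median of -0.12, or -0.18 without replicate 3. Of these rRNAs, 1 had all 24 h values below all controls, or 2 without replicate 3. The mitochondrial share of summed FPKM was 27.29% to 28.90% in the controls and 28.75% to 29.42% at 24 h. Nuclear genes of the respiratory chain moved with replicate 3, from a median of 0.05 to -0.04 without it.

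The largest fold change in size, a rise, was among the mitochondrial tRNA genes, whose values ran from -0.66 to 3.10. These short genes lie between the mRNA genes of the polycistronic mitochondrial transcript, and the sources used here do not give how fragments over 2 neighbouring genes were counted, so their values are uncertain. Of 22 tested, 7 had all 24 h values above all controls and 1 had them below, with a median of 0.30. Without replicate 3 these were 9 and 2, with a median of 0.39. MT-TI, at chrM:4263-4331 directly after MT-ND1, rested on 0, 4 and 8 fragments in the controls and on 31, 37 and 45 at 24 h. Its log2 fold change was 3.10 ± 0.59 (SE, adjusted p = 0.298), or 2.98 without replicate 3, and the 48 h libraries had 35, 26 and 37 fragments. MT-TM had 2 fragments in each control library and 10, 11 and 7 at 24 h (1.55, or 1.73 without replicate 3). MT-TR had 97, 90 and 84 in the controls and 131, 138 and 163 at 24 h (0.53, adjusted p = 0.128, or 0.46 and 0.0523 without replicate 3).

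**Figure D4:**
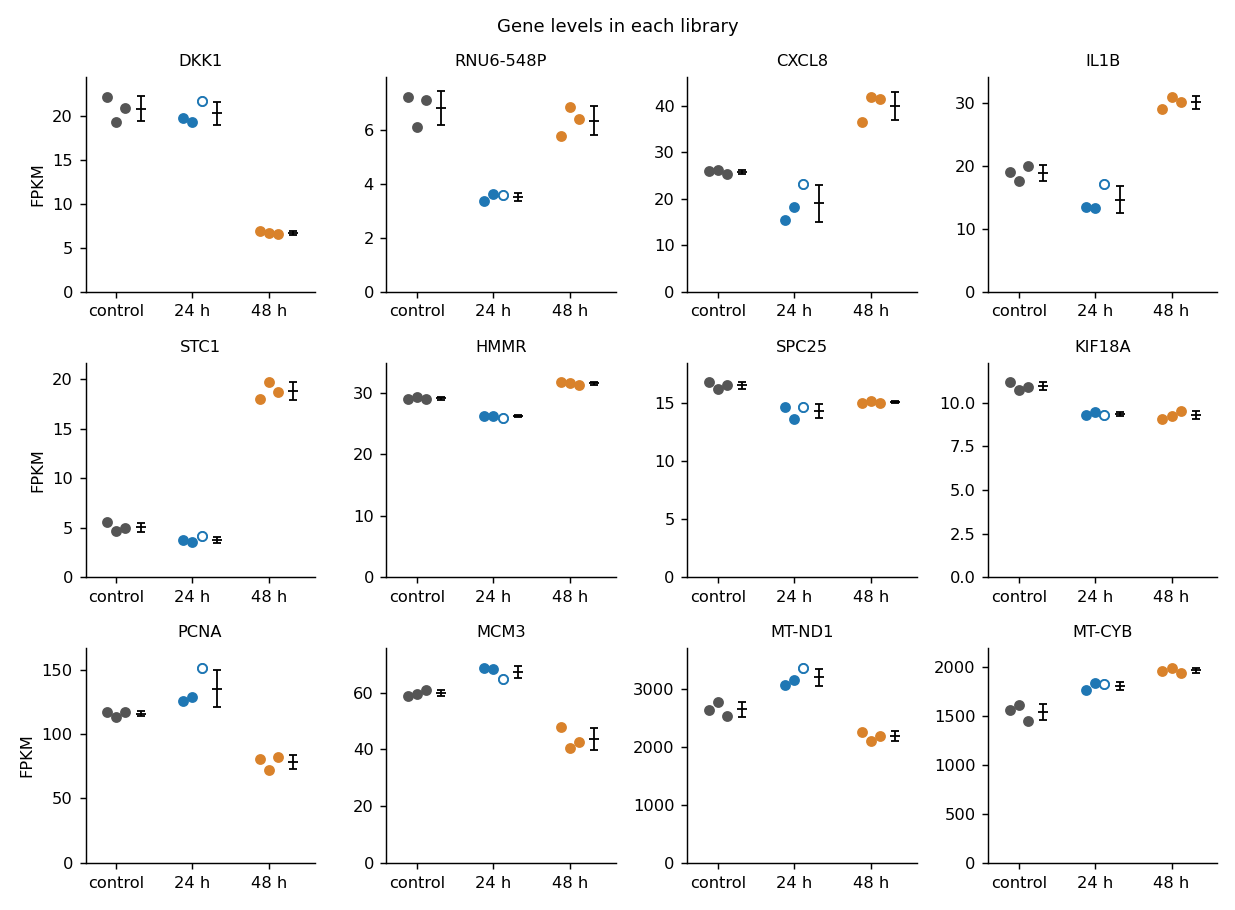
FPKM of 12 genes in each library, with 1 point per library, the open blue circle for 24 h replicate 3, and the black bar for the mean and SD over 3 libraries. The y axes start at 0. DKK1 overlaps between control and 24 h and is near 6.75 FPKM at 48 h, while CXCL8 and IL1B are under the controls at 24 h and over them at 48 h.

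Genes of cholesterol synthesis and uptake had a median of -0.06, or -0.07 without replicate 3, with 7 of 26 members below all controls and 1 above (12 and 3 without it). STARD4, a sterol carrier, had 4.80, 4.74 and 5.05 FPKM in the controls and 3.85, 3.63 and 4.42 at 24 h (-0.24, adjusted p = 0.465, or -0.31 without replicate 3). Fatty acid synthesis had 7 of 20 members below and 1 above, with a median of -0.04 (8 and 1, with -0.03, without replicate 3). Both lists had positive medians at 48 h, 0.29 and 0.16. Among proteases, integrins and motility genes, 8 of 31 were below all controls and 3 above (9 and 3 without replicate 3). MMP9, the gelatinase B that degrades matrix, had 2.16, 2.72 and 2.05 FPKM and then 1.61, 1.40 and 1.64 (-0.37, adjusted p = 0.419, or -0.40 without replicate 3).

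Other genes also had separate groups. TXNIP, an inhibitor of thioredoxin and glucose uptake, had 19.5, 22.0 and 21.8 FPKM in the controls and 25.9, 24.5 and 25.3 at 24 h (0.25 with and without replicate 3, adjusted p = 0.476). ISG15, a ubiquitin-like interferon-induced protein, had 8.02, 8.54 and 6.79 FPKM and then 9.40, 10.0 and 12.2 (0.39, or 0.29 without replicate 3). TXNIP averaged 48.6 FPKM at 48 h.

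When limma weighted each library by its agreement with its group, 17 genes were called higher (0.128%) and 34 lower (0.257%). The weights of the 24 h libraries were 0.830, 3.89 and 0.179, so the 24 h group rests mainly on replicate 2 in this fit. When replicate 3 was left out as well, 2 genes were called higher and 2 lower. The 51 calls held 25 protein-coding genes, 7 higher and 18 lower. Among those lower were CXCL8 (adjusted p = 0.0364 with weights), IL1B and IL1A (0.0297 each) of the cytokines, STC1 and BHLHE40 (0.0364 each) of the hypoxia targets, and SPC25 (0.0355), KIF18A and HMMR (0.0365 each) of the G2/M list. LIMA1, an actin-bundling protein, was called lower at 0.0297 and had 35.8, 34.7 and 36.2 FPKM in the controls and 30.2, 30.3 and 31.4 at 24 h (-0.21, or -0.23 without replicate 3). CD47, the surface signal that inhibits phagocytosis, had 21.02, 21.98 and 21.4 FPKM and then 18.8, 18.4 and 20.1 (-0.16, or -0.20). TM4SF1 and ESM1, both known from endothelium, were also among the 18 (-0.24 and -0.15 in the unweighted fit, or -0.33 and -0.23 without replicate 3).

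Of the 7 called higher with weights, 2 were the mitochondrial genes MT-ND1 and MT-CYB. TFRC, the transferrin receptor that brings iron into the cell, had 26.5, 28.0 and 28.5 FPKM in the controls and 32.03, 32.6 and 31.01 at 24 h (0.20, or 0.22 without replicate 3, adjusted p = 0.384 unweighted and 0.0421 weighted). ENG, a co-receptor for TGF-β, had 6.20 FPKM in each control and 7.03, 7.37 and 7.33 at 24 h (0.20, or 0.19 without replicate 3). MUL1, a ubiquitin ligase of the mitochondrial outer membrane, had 6.61, 7.01 and 6.33 FPKM and then 8.60, 8.37 and 7.67 (0.27, or 0.31). In each of these genes the groups were separate.

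The promoter of CXCL8 is shown because it was the protein-coding gene of the NF-κB list with the lowest fold change, and because its κB site is well known. The RefSeq window (GRCh38.p14) is chr4:73740319-73740618 on the plus strand, with GGAATTTCC, the letters searched together with the reverse complement, in capitals.
CXCL8: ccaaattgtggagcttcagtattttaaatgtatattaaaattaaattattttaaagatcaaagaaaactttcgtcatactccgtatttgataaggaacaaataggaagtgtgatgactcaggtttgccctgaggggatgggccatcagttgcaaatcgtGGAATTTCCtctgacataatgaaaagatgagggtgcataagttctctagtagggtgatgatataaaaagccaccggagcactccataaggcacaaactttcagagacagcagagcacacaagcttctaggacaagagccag
The match starts at -91. These letters were present for 8 of the 17 tested NF-κB targets with a window (47.1%), for 2 of the 7 whose groups did not overlap (28.6%) and for 55 of the 9256 tested genes (0.594%).

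Several lists took their sign from 24 h replicate 3. Ribosomal protein genes had a median of 0.08 with it and -0.01 without it, and mitochondrial ribosomal proteins 0.03 and -0.03. Chromatin regulators with long transcripts lay at -0.08 and 0.07, and collagens and matrix genes at -0.07 and 0.01. Of the 79 ribosomal protein genes, 1 had all 24 h values above all controls and none had them below, or 1 and 2 without that library. In 9 of the 53 lists the median, rounded to 2 decimals, changed sign when this library was left out. Medians that rounded to zero were not counted, so this number is a lower bound. Whether gene length or another property of the library set these values was not tested.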

How the data were processed

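Polyadenylated RNA of 143B cells was sequenced in 9 paired-end libraries (3 groups of 3). Values are FPKM that the authors deposited as 1 gene table with replicates kept apart. The submitters' processing notes list HISAT2, featureCounts, Subread, DESeq2 and the build hg38. Their versions, settings and use of strand were not given in sources used here, so antisense and overlapping genes cannot be told apart.

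Gene types, positions and exon lengths came from GENCODE release 29. FPKM times exon length times 1 total per library gave whole fragments, within 0.01, for 21502 genes (60.4% of those with a length), which supplied the fragment numbers. A count test was not the basis of any result. Genes that reached 1 FPKM in 3 or more of the 6 control and 24 h libraries were tested on log2(FPKM + 1), which understates changes of low genes. limma 3.58.1 in R 4.3.3 fitted all 9 libraries with 1 mean per group (eBayes with a trend, 6 residual degrees of freedom, two-sided, Benjamini-Hochberg over 13238 genes, called at an adjusted p under 0.05). DKK1 was also compared by an exact permutation test. Gene groups were described by counts and medians over 53 lists, without a set test.

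The members and lists were chosen with earlier results of these data known. The naming rule took the 12 highest and 12 lowest called genes with separate groups, 8 in each direction called only without 24 h replicate 3, up to 3 called members per list, up to 4 small RNAs, and DKK1 with CTNNB1, MYC, CCND1, LEF1 and AXIN2 in every case. Since it yielded few genes, the others were named after their values were seen. Alternatives were other pseudocounts, filters and scalings, array weights, no trend, 6 libraries only, a replicate block, correction for gene length and leaving out each library. Promoters came from RefSeq (GRCh38.p14).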

Additional observations from a re-analysis of the deposited data

Results flagged for a closer look

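For each gene named with a tested fold change (61), the change from 24 h to 48 h was tested as its own contrast in the same fit. The difference itself leaves the controls out, while the estimate of spread uses all 9 libraries. In 34 of the 61 it passed an adjusted p under 0.05 with limma (48 h minus 24 h, log2 scale), compared with 32.9% of all tested genes. Most of these genes were named after their 24 h values were seen, and the contrast reuses those values, so the 34 is a description only. In the Wnt pathway and bone lineage the difference was -1.46 for DKK1, -0.36 for RUNX2, 0.41 for SFRP1, 0.42 for DKK3 and 0.42 for VEGFA. Among cytokines and inflammatory genes it was 1.05 for CXCL8, 1.00 for IL1B, 0.33 for IL1A, 1.51 for LIF, 1.36 for PTGS2, 0.77 for NFKB2 and 1.61 for ICAM1. It was 1.38 for EGR1, 3.31 for ANGPTL4, 2.04 for STC1, 1.47 for BHLHE40 and 1.33 for MMP9. In the cell cycle it was 0.26 for HMMR, -0.78 for PCNA, -0.61 for MCM3, -0.57 for CDC45 and -0.51 for RRM1. In mitochondrial transcripts it was -0.55 for MT-ND1, -0.17 for MT-CO2 and -0.42 for MT-TR. In lipid and other genes it was 0.97 for STARD4, 0.92 for TXNIP, 0.11 for LIMA1, -0.39 for TFRC, -0.15 for ENG, 0.38 for TM4SF1, 1.04 for ESM1 and 0.52 for CD47. For RNU6-548P it was 0.70. Time in culture and length of treatment differ together between the 2 groups.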

How the results depend on the processing

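The number of genes called higher was 0 in the unweighted fit to all libraries. It was 2 with no filter on low values, 1 with a filter at 5 FPKM, 2 with quantile normalization, 17 with array weights, 2 with array weights and without 24 h replicate 3, 1 with array weights and gene length correction, and 1 with 6 libraries only and without that replicate. The number called lower was 1. It was 2 with quantile normalization, 34 with array weights, 2 with array weights and without replicate 3, and 3 with array weights and length correction. It was 0 without a variance trend, with 6 libraries only (with or without replicate 3) and with length correction (with or without it). Leaving out 1 library at a time gave 0 to 0 genes higher and 0 to 1 lower. The replicate block gave 0 higher and 0 lower, also with length correction. After each gene was centred on its group mean, same-numbered control and 24 h libraries correlated at -0.082, 0.099 and 0.029. The other pairs of a control and a 24 h library ran from -0.163 to 0.131. With 3 libraries per group, these values cannot decide whether the numbers pair the libraries.

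Genes with all 24 h values above all controls numbered 1090 without a filter and 403 at 5 FPKM, and those below 2266 and 606. Leaving out 1 library gave 1034 to 1580 above and 1601 to 2103 below, since fewer values need to separate. Lists with a called member numbered 7 with array weights and 1 each with quantile normalization, with array weights without replicate 3 and with array weights and length correction.

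The sign changed for genes near zero. The DKK1 value was 0.01 without control replicate 1, and ranged from -0.09 to 0.01 when 1 library was left out. CTNNB1 was -0.01 without control replicate 2, -0.02 without 24 h replicate 3 (also with array weights or with 6 libraries only), -0.03 with array weights, -0.03 with length correction without replicate 3 and -0.02 with array weights and length correction. CCND1 was -0.01 with quantile normalization and reached -0.01 without 24 h replicate 1 or 2 and -0.00 without control replicate 1. KREMEN1 was -0.02 without control replicate 3, -0.04 and -0.05 without 24 h replicate 1 or 2. With quantile normalization MT-ND1 was 0.00 and MT-CO2 -0.12, and MT-CO2 was -0.00 without control replicate 3. MKI67 was 0.07 without replicate 3 (also with 6 libraries only), 0.08 with array weights and 0.06 with length correction besides, 0.04 with array weights and 0.02 with array weights and length correction. VEGFA was 0.01 with length correction, with and without the replicate block. Leaving out 1 library at a time, MKI67 ranged from -0.39 to 0.07, and the highest values were 0.03 for CTNNB1, 0.06 for CCND1, 0.05 for MT-CO2 and 0.16 for KREMEN1. The settings that combine replicate 3 or array weights with another choice were added after seeing the data. Short genes at low FPKM rest on few fragments, which limits the precision of small RNAs. The causes of these changes were not tested.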
